A study of Drosophila melanogaster with 10 samples.

Results

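The insulin and TOR pathway genes described here are 10 rows of the deposited expression table, taken by name: InR, chico, Akt1, foxo, Tsc1, gig, Tor, Rheb, S6k and Thor. All 10 are among the 7987 genes of the table, and all 10 passed the filter on low values that left 7858 genes for testing. Growth of larval discs responds to insulin-like peptides through the receptor InR. Its substrate Chico recruits PI3-kinase, whose lipid product activates the kinase Akt1. Akt1 keeps the transcription factor Foxo out of the nucleus and restrains the Tsc1 and Gigas (TSC2) complex, which in turn holds down the small GTPase Rheb. Rheb switches on the TOR kinase in its complex TORC1, and TORC1 phosphorylates S6 kinase (S6k) and Thor, the fly 4E-BP, which binds and blocks the cap-binding factor eIF4E. Much of this pathway is controlled by phosphorylation and localisation, which RNA levels do not measure.

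RNA was sequenced from pooled wing imaginal discs of larvae in the third instar, from 4 genotypes, with 10 libraries in all. All genotypes carried Gal4 under the apterous (ap) enhancer, which is active in the dorsal compartment, together with tubulin-Gal80ts and a UAS-GFP transgene. The study's methods kept larvae at a restrictive temperature, then shifted them to a permissive one to induce the transgenes, and took discs some days later. By the same methods, control crosses carried 2 copies of GFP and experimental crosses 1. In ap > Yki+NelfAi, the tumorous genotype (3 libraries), the driver expressed UAS-Yki, a growth-promoting transcriptional co-activator, and an RNAi construct against Nelf-A, a subunit of the complex that pauses RNA polymerase near promoters. In ap > Yki (3 libraries) it expressed UAS-Yki, in ap > NelfAi (2 libraries, numbered 1 and 2) the RNAi construct, and in ap > GFP, the wild-type control (2 libraries, numbered 1 and 3), GFP only. The driver line was the same throughout, whole discs were taken, so cells outside the dorsal compartment are included, and the study's methods pooled the fewest discs for the tumorous genotype. In such bulk tissue, fewer cells of a type and less RNA per cell cannot be told apart. Values are deposited values, that is, reads on a gene divided by a factor of the library; 1 read is worth 0.0464 to 0.0839 of this unit. Changes were tested on the log2(value + 0.5) scale by limma, in a single fit of the 10 libraries, with Benjamini-Hochberg adjustment over all 7858 genes; called genes are those at an adjusted p under 0.05 that changed 1.5-fold or more. Standard errors are given as SE. This scale understates changes of low values. Nothing in the labels says that libraries of a genotype came from separate crosses, so p-values measure the spread between these libraries.

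The libraries held 6990931 to 13065642 reads on genes. The library labelled ap > NelfAi replicate 2 had a Nelf-A value of 32.9, inside the 28.1 to 40.4 of the 5 libraries without the RNAi construct. Replicate 1 of that label had 11.4 and the tumorous libraries 15.8 to 17.1. Once values were corrected for transcript length, ap > NelfAi replicate 2 had 26.1, lower than any library lacking RNAi (31.1 to 37.3), and higher than replicate 1 (18.3) and the tumorous libraries (14.5 to 16.5). The yki value was 8143 to 11376 in tumorous libraries, 2637 to 4007 in ap > Yki, 75.0 to 187 in ap > NelfAi and 265 to 307 in ap > GFP, and these reads do not separate transgene from endogenous gene. The 9 wing disc selector genes checked were all above 0 in every genotype, with summed values of 475 to 677 in tumorous, 407 to 699 in ap > Yki, 294 to 706 in ap > NelfAi and 588 to 642 in ap > GFP libraries. Between tumorous and ap > GFP discs, 1 of the 9 was called higher and 4 lower. Libraries also differed in how their values followed transcript length. Over 7740 genes with a known length, Spearman's rho between a gene's deviation from its mean and its longest transcript was -0.66 in ap > NelfAi replicate 1, 0.49 in ap > NelfAi replicate 2, 0.47 in ap > Yki replicate 3, 0.29 in ap > Yki+NelfAi replicate 1 and between -0.21 and 0.21 in the others. This touches the members directly, since 8 of the 10 have a longer transcript than the median gene tested (median of members 4.40 kb, of genes tested 2.10 kb). Results are therefore also given with that trend removed within each library.

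To ask whether the pathway's genes differ in RNA level between tumorous discs and the genotypes that are not tumorous, each member was compared between genotypes. Thor, the translational inhibitor at the end of the pathway, stood out. Relative to ap > GFP it was 19.7-fold higher in ap > Yki+NelfAi and 4.46-fold higher in ap > Yki. It was the only member called in either comparison, and the other 9 lay between -0.28 and 0.95 on the log2 scale in the first. The background for 1 of 10 members called is 22.1% of all genes tested in the tumorous discs and 4.05% in ap > Yki, each against ap > GFP. One member called of 10 is thus below the background share in the first comparison. The median log2 fold change of the 10 members against ap > GFP was 0.33 in ap > Yki+NelfAi, where that of all genes tested was 0.03, and -0.06 in ap > Yki, where that of all genes was -0.01. Members were chosen with earlier results of these data known, so their standing beside all genes is a description.

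**Figure D1:**
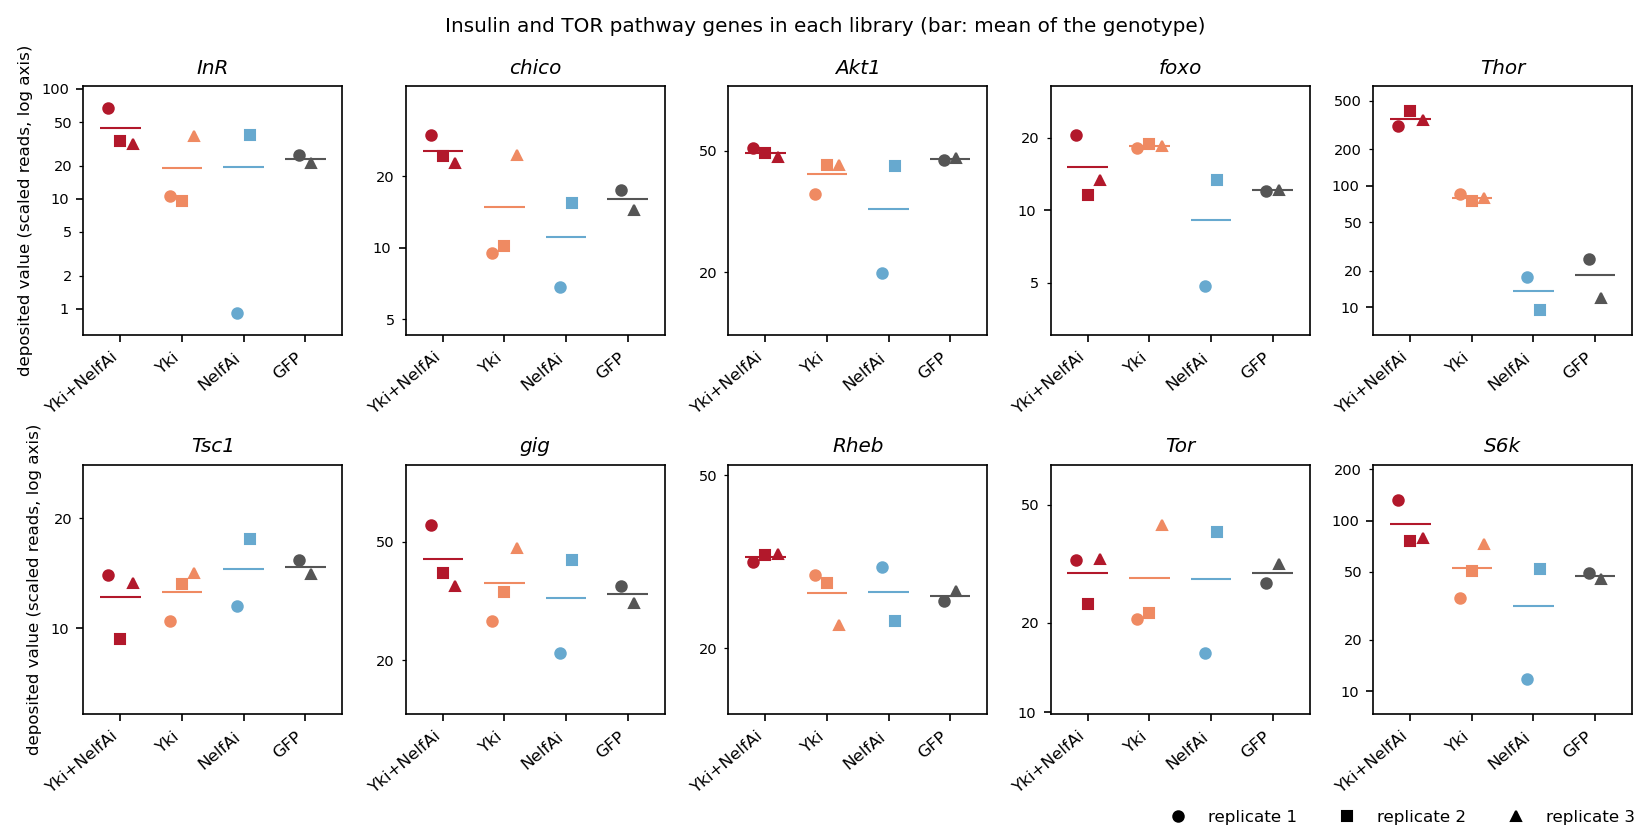
Deposited value (scaled reads, log axis) of the 10 members in each library, with genotypes from left to right ap > Yki+NelfAi, ap > Yki, ap > NelfAi and ap > GFP; points are libraries, shaped by replicate number, and bars are genotype means. Thor separates ap > Yki+NelfAi (307 to 413), ap > Yki (74.8 to 85.2) and the other libraries (9.49 to 25.3), while most other members spread as widely within ap > NelfAi as between genotypes.

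At the head of the pathway, InR and chico were high in the tumorous libraries without passing the test. InR (FBgn0283499) lies on the minus strand of chromosome 3R at 21570248 to 21619321 (dm6) and has the longest transcript of the members, 10.7 kb. Its values were 66.5, 33.7 and 31.5 in ap > Yki+NelfAi, 10.7, 9.64 and 37.6 in ap > Yki, 0.923 and 37.8 in ap > NelfAi, and 24.9 and 21.3 in ap > GFP. The tumorous libraries were all above ap > GFP, but replicate 3 of ap > Yki and replicate 2 of ap > NelfAi reached into the tumorous range, and replicate 1 of ap > NelfAi held only 11 reads. The log2 fold change was 0.83 (SE 1.13, 95% interval -1.72 to 3.38, adjusted p = 0.656 by limma) for the tumorous discs against ap > GFP, an interval too wide to show whether the receptor gene changed. Against ap > Yki it was 1.36 (SE 1.02, adjusted p = 0.389 by limma). With the length trend removed the spread narrowed: InR was then at 44.7, 35.2 and 29.6 in ap > Yki+NelfAi, 14.6, 12.4 and 20.8 in ap > Yki, 4.02 and 21.2 in ap > NelfAi, and 20.3 and 20.3 in ap > GFP. On that scale the tumorous libraries no longer overlapped with any others, and the log2 difference from ap > Yki was 1.18 (SE 0.453, adjusted p = 0.068 by limma), still not a call.

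The adaptor gene chico (FBgn0024248, 2L at 10242512 to 10247078, minus strand) behaved alike in order but with a smaller spread. It had 30.0, 24.3 and 22.7 in ap > Yki+NelfAi, 9.49, 10.2 and 24.7 in ap > Yki, 6.88 and 15.4 in ap > NelfAi, and 17.6 and 14.5 in ap > GFP. All tumorous libraries were above ap > NelfAi and ap > GFP, and replicate 3 of ap > Yki was the one library of another genotype inside their range. The log2 fold change was 0.66 (SE 0.432, 95% interval -0.31 to 1.63, adjusted p = 0.315 by limma) against ap > GFP and 0.90 (SE 0.386, 95% interval 0.03 to 1.77, adjusted p = 0.138 by limma) against ap > Yki. Against ap > Yki chico was called with the length trend removed (log2 0.87, adjusted p = 0.0365 by limma) and without ap > Yki replicate 3 (log2 1.33, adjusted p = 0.0239 by limma). Of the 7858 genes, 910 and 588 were called higher in these fits, and the second leaves out the library inside the tumorous range. Of the 10 members, chico alone shares exon bases with another annotated gene, the antisense RNA asRNA:CR44995, over 380 of 3578 bases (10.6%). The counting is not stated to use strand, so reads from that stretch cannot be told apart.

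Akt1, the kinase that relays the signal, was level across most libraries. Akt1 (FBgn0010379, 3R at 16099228 to 16105670, plus strand) had 50.9, 49.3 and 47.5 in ap > Yki+NelfAi, 36.0, 45.0 and 44.9 in ap > Yki, 19.9 and 44.6 in ap > NelfAi, and 46.5 and 47.3 in ap > GFP. The tumorous libraries were above all others by a narrow margin, and 1 library, ap > NelfAi replicate 1, lay far below the rest. The log2 fold change in ap > Yki+NelfAi against ap > GFP was 0.07 (95% interval -0.59 to 0.73, adjusted p = 0.902 by limma). With the length trend removed, ap > NelfAi replicate 1 came to 32.9, beside 34.6 in replicate 2, and all libraries lay between 32.9 and 51.8. The tumorous libraries (42.7 to 51.8) then overlapped with ap > Yki (35.3 to 47.1) and ap > GFP (42.6 to 45.6).

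In deposited values, foxo, the transcription factor that Akt1 restrains, was the member whose ap > Yki libraries agreed most closely. foxo (FBgn0038197, 3R at 14056945 to 14087978, plus strand) had 20.5, 11.6 and 13.4 in ap > Yki+NelfAi, 18.2, 18.9 and 18.4 in ap > Yki, 4.87 and 13.4 in ap > NelfAi, and 12.1 and 12.1 in ap > GFP. With the length trend removed, the ap > Yki libraries of foxo were at 19.6, 19.1 and 15.9. Tor (26.0, 25.4 and 26.8) and Rheb (27.8, 27.0 and 25.6) agreed more closely there. In deposited values of foxo, all ap > Yki libraries were above both ap > GFP libraries, and the tumorous libraries lay on both sides of the controls. The log2 fold change was 0.27 (95% interval -0.56 to 1.10, adjusted p = 0.654 by limma) for the tumorous discs, and for ap > Yki it was 0.59 (SE 0.370, 95% interval -0.24 to 1.42, adjusted p = 0.467 by limma), both against ap > GFP and neither called.

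The genes of the brake on Rheb, Tsc1 and gig, differed from ap > GFP in opposite directions in the tumorous discs, neither called. Pearson's r between them over the libraries was 0.42, and a difference between the genes was not tested. Tsc1 (FBgn0026317, 3R at 24130307 to 24134654, plus strand) had 14.0, 9.32 and 13.3 in ap > Yki+NelfAi, 10.5, 13.2 and 14.2 in ap > Yki, 11.5 and 17.5 in ap > NelfAi, and 15.3 and 14.1 in ap > GFP. It was the one member whose tumorous libraries were all below ap > GFP, by a log2 fold change of -0.28 (95% interval -0.85 to 0.29, adjusted p = 0.478 by limma). gig (FBgn0005198, 3L at 20129181 to 20139010, plus strand), which encodes the GTPase-activating subunit, had 56.8, 39.2 and 35.6 in ap > Yki+NelfAi, 27.1, 34.0 and 47.9 in ap > Yki, 21.1 and 43.6 in ap > NelfAi, and 35.4 and 31.2 in ap > GFP. Its tumorous libraries were above ap > GFP, one of them narrowly, with a log2 fold change of 0.36 (95% interval -0.42 to 1.15, adjusted p = 0.508 by limma). Neither subunit was called in any of the 6 comparisons.

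Rheb and Tor, the switch and the kinase, had the narrowest differences between genotype means, together with Tsc1. Rheb (FBgn0041191, 3R at 5568921 to 5570491, plus strand), with a short transcript of 1.23 kb, had 31.5, 32.7 and 33.0 in ap > Yki+NelfAi, 29.5, 28.2 and 22.6 in ap > Yki, 30.7 and 23.1 in ap > NelfAi, and 25.6 and 27.0 in ap > GFP. The tumorous libraries lay close together and above every other library, with log2 fold changes of 0.29 (SE 0.191, 95% interval -0.13 to 0.72, adjusted p = 0.311 by limma) against ap > GFP and 0.28 (95% interval -0.11 to 0.66, adjusted p = 0.294) against ap > Yki. Tor (FBgn0021796, named mTor in the annotation, 2L at 13004480 to 13013197, plus strand; the separate row tor is the receptor torso) had 32.5, 23.1 and 32.7 in ap > Yki+NelfAi, 20.5, 21.5 and 42.6 in ap > Yki, 15.8 and 40.5 in ap > NelfAi, and 27.3 and 31.6 in ap > GFP. The genotypes overlapped throughout, and the log2 fold change in ap > Yki+NelfAi against ap > GFP was -0.01 (95% interval -0.96 to 0.93, adjusted p = 0.987 by limma).

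**Figure D2:**
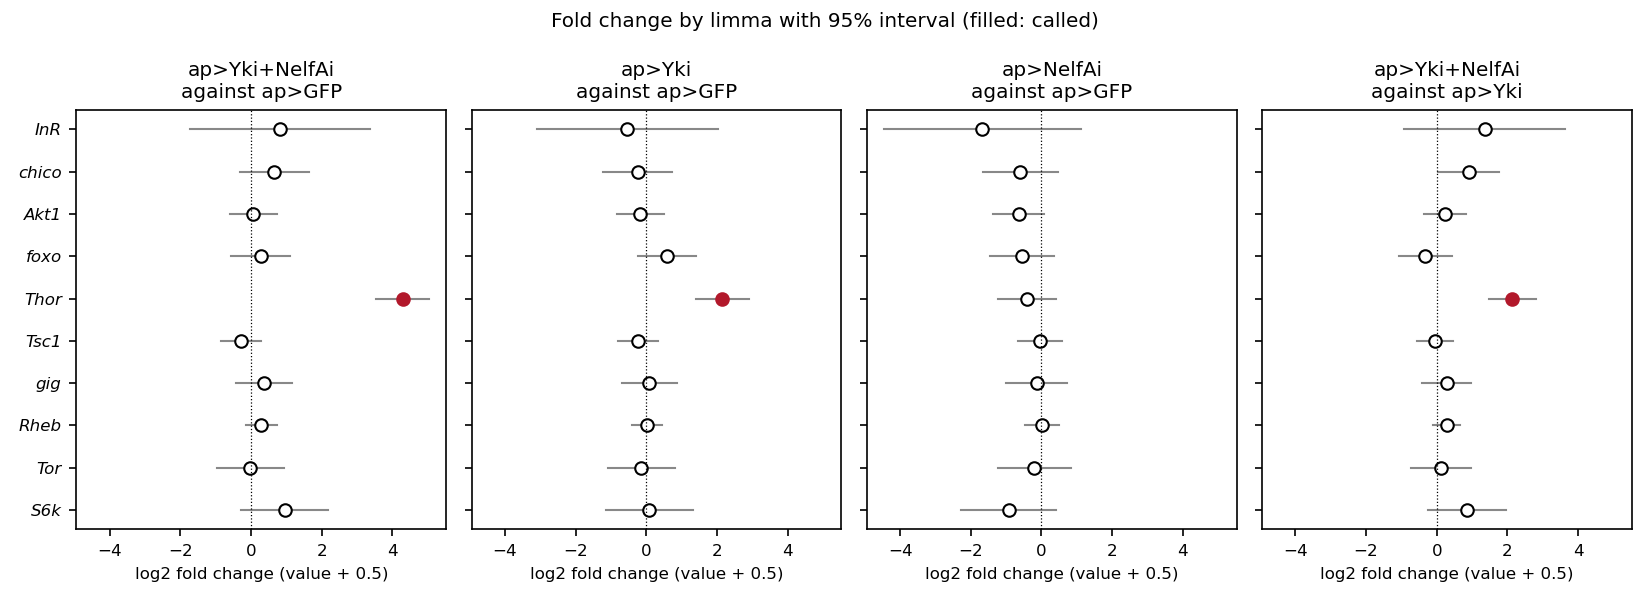
Log2 fold change of the 10 members with its 95% interval by limma (horizontal axis, log2 of value + 0.5) in ap > Yki+NelfAi, ap > Yki and ap > NelfAi against ap > GFP, plus ap > Yki+NelfAi against ap > Yki; filled points are called. Thor is filled in 3 of these panels, at 4.30, 2.16 and 2.14, and the interval of every other member takes in 0 except that of chico against ap > Yki (0.03 to 1.77).

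Of the targets of TORC1, S6k was the member next to Thor in the size of its difference from ap > GFP in the tumorous discs. S6k (FBgn0283472, 3L at 5797549 to 5810931, minus strand), which encodes a kinase of ribosomal protein S6, had 132.6, 75.6 and 78.6 in ap > Yki+NelfAi, 35.0, 50.6 and 72.5 in ap > Yki, 11.7 and 51.8 in ap > NelfAi, and 49.4 and 45.5 in ap > GFP. All tumorous libraries were above all others, the closest being ap > Yki replicate 3. The log2 fold change was 0.95 (SE 0.547, 95% interval -0.28 to 2.18, adjusted p = 0.253 by limma) against ap > GFP and 0.87 (SE 0.490, adjusted p = 0.255) against ap > Yki, not called. The call changed with the treatment of libraries outside the comparison. Against ap > GFP it was called without ap > NelfAi replicate 1 (adjusted p = 0.0468 by limma) and without replicate 2 (0.046), which enter only through the estimate of spread, and with the length trend removed (log2 0.97, SE 0.285, adjusted p = 0.0232); these fits called 14.4%, 14.4% and 13.7% of all genes higher. Against ap > Yki it was likewise called without either ap > NelfAi library (0.0486 and 0.0477) and with the length trend removed (0.0295), where 11.5%, 11.5% and 11.6% of all genes were called higher. By edgeR on the recovered reads the adjusted p was 0.230 and 0.260 in these comparisons.

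Thor (FBgn0261560, 2L at 3478434 to 3479612, plus strand) has the shortest transcript of the members, 0.755 kb, and Foxo is known to activate its transcription. Its values were 307, 413 and 347 in ap > Yki+NelfAi (6483, 6025 and 6949 reads), 85.2, 74.8 and 79.1 in ap > Yki (1581, 1574 and 1704 reads), 17.8 and 9.49 in ap > NelfAi (212 and 155 reads), and 25.3 and 12.0 in ap > GFP (395 and 223 reads). No tumorous library overlapped with ap > Yki, and no ap > Yki library with ap > NelfAi or ap > GFP, whose 4 libraries overlapped with each other. The mean was 356 ± 53.3 in ap > Yki+NelfAi (SD, n = 3), 79.7 ± 5.26 in ap > Yki (SD, n = 3), 13.6 ± 5.86 in ap > NelfAi (SD, n = 2) and 18.6 ± 9.35 in ap > GFP (SD, n = 2). Set against ap > GFP, the tumorous log2 fold change was 4.30 (SE 0.334, 95% interval 3.55 to 5.05, adjusted p = 4.52e-05 by limma, with 3 of 3 libraries higher), which ranks 12 from the top when the 7858 genes tested are ordered from the highest increase to the deepest decrease. All 10 fits without 1 of the libraries called it, with log2 fold changes of 3.78 to 4.82, as did the fit with the length trend removed (4.28).

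Thor was also called in the comparisons on either side of ap > Yki. For ap > Yki against ap > GFP, the change was 2.16 on the log2 scale (SE 0.334, 95% interval 1.40 to 2.91, adjusted p = 0.0100 by limma, with 3 of 3 libraries higher). This call was lost without ap > GFP replicate 3, the lower of the 2 control libraries (log2 1.64, adjusted p = 0.117), and kept in the other 9 fits. Between ap > Yki+NelfAi and ap > Yki, where 17.4% of all genes were called, Thor was again the one member called, at log2 2.14 (SE 0.299, 95% interval 1.47 to 2.81, adjusted p = 0.00157 by limma), kept in 10 of 10 fits. This comparison shares the ap > Yki libraries with the one before it, where they stand on the other side, and the tumorous libraries with that against ap > GFP. The summed values of fat body markers, a larval tissue that can stay attached to dissected discs, were 14.0 to 47.3 in ap > Yki+NelfAi, 17.5 to 176 in ap > Yki, 49.0 to 290 in ap > NelfAi and 37.5 to 41.4 in ap > GFP. None of these 6 markers was called between ap > Yki+NelfAi and ap > GFP, and none was at 0. Hemocyte markers summed to 26.4 to 35.1 in ap > Yki+NelfAi and 25.5 to 31.2 in ap > GFP. The sums of muscle markers were 71.6 to 152 in ap > Yki+NelfAi and 197 to 364 in ap > GFP (2 of 5 called lower), those of myoblast markers 24.1 to 32.7 in ap > Yki+NelfAi and 67.1 to 88.6 in ap > GFP (2 of 5 called lower), and those of salivary gland markers 0.379 to 3.29 in ap > Yki+NelfAi and 62.1 to 299 in ap > GFP (4 of 4 listed called lower). The part of these tissues in the members' values was not tested.

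Nelf-A depletion alone gave no call among the members. In ap > NelfAi against ap > GFP, limma called 0 of 10 members, beside 0.0764% of all genes tested (6 genes; 301 had an unadjusted p under 0.05, of which none was a member), and edgeR and DESeq2 on the recovered reads also called 0 members. The log2 fold changes of the members lay between -1.67 (InR, SE 1.24, adjusted p = 0.968 by limma) and 0.02 (Rheb). The 2 libraries of this genotype differed widely for most members: ap > NelfAi replicate 1 was the lowest of the 10 libraries for 7 members (InR, chico, Akt1, foxo, S6k, Tor and gig), and for 6 with the length trend removed (InR, chico, Akt1, foxo, S6k and Rheb), where it was the highest for Tor and Tsc1. How many of all genes were lowest in that library was not counted. Without replicate 2, the library with the higher Nelf-A value, InR (log2 -4.05, adjusted p = 0.0195 by limma), S6k (-1.97, 0.030), foxo (-1.23, 0.0377) and Akt1 (-1.22, 0.0171) were called lower, 4 of 10 members beside 8.08% of all genes. Without replicate 1 the same genes were at 0.70, 0.12, 0.14 and -0.07, none called. Such fits take the spread of the lone library to be that of the other genotypes. For Thor the log2 fold change was -0.41 (95% interval -1.23 to 0.41, adjusted p = 0.968 by limma).

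**Figure D3:**
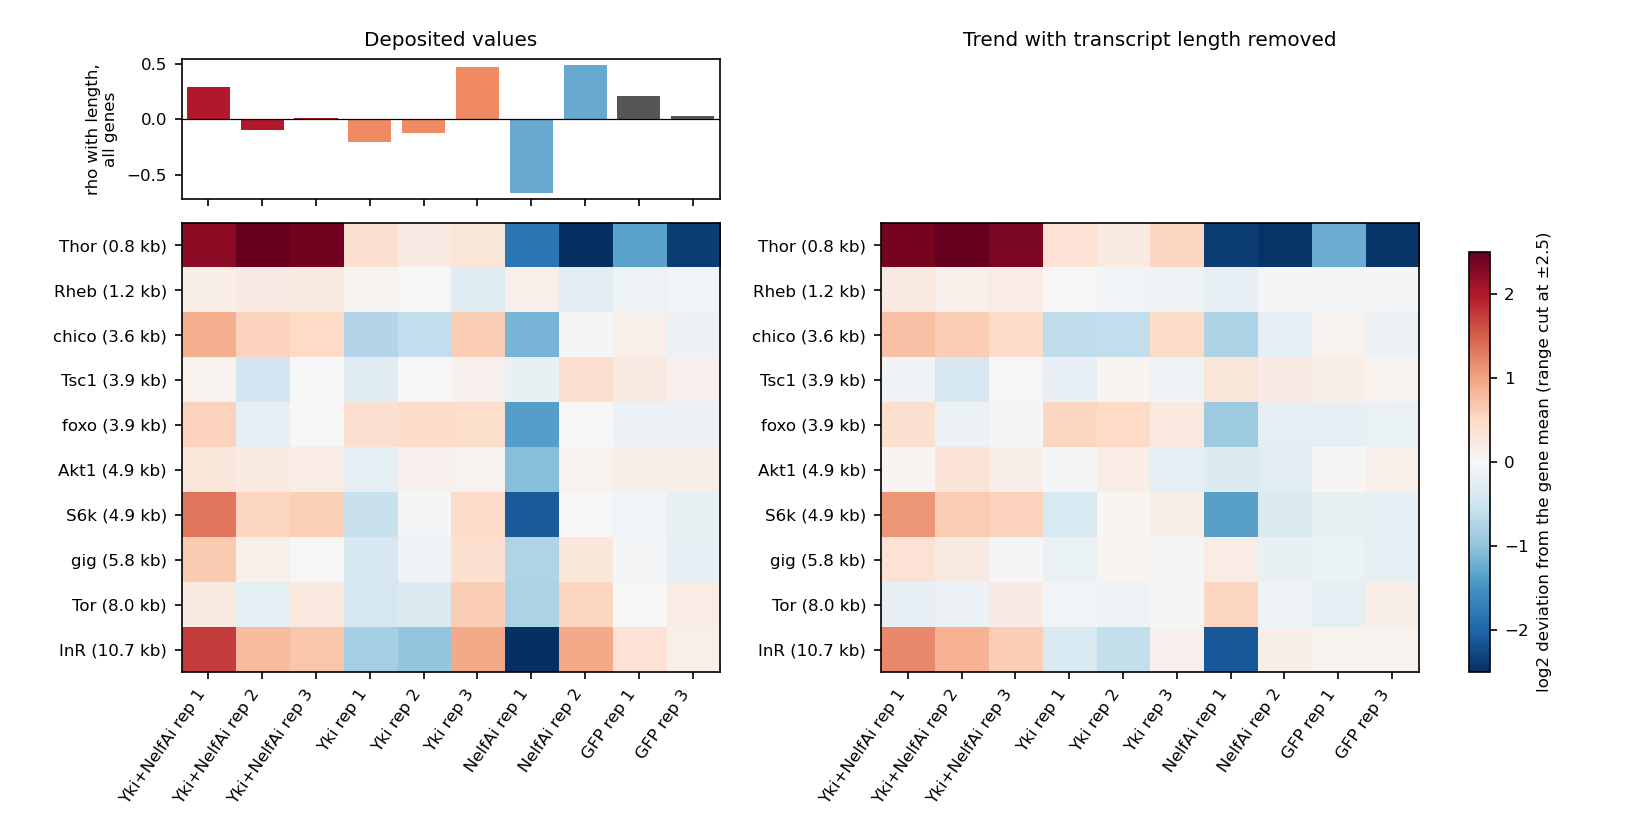
Colour shows the log2 deviation of each member from its mean over the 10 libraries, in deposited values (left) and after the trend with length was taken out of each library (right); rows run from the shortest transcript (Thor, 0.8 kb) to the longest (InR, 10.7 kb), columns are libraries, and bars above give Spearman's rho with transcript length over 7740 genes. The column of ap > NelfAi replicate 1 (rho -0.66) is still the lowest on the right for InR (4.02), chico (9.08), Akt1 (32.9), foxo (6.97) and S6k (19.6). It becomes the lowest for Rheb (24.4), while gig (40.3) and Tor (40.03) turn above both ap > GFP libraries. The row of Thor keeps its pattern.

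Against ap > NelfAi, the tumorous libraries were called higher for 2 members, Thor and S6k, where 17.5% of all genes were called in either direction and 8.36% were called higher. Thor was at a log2 fold change of 4.71 (SE 0.334, 95% interval 3.96 to 5.46, adjusted p = 5.73e-05 by limma, called whichever of the 10 libraries was left out). S6k was at 1.88 (SE 0.547, 95% interval 0.65 to 3.11, adjusted p = 0.0431 by limma). This call was kept in 2 of 10 such fits, those without ap > Yki replicate 3 and without ap > NelfAi replicate 2. It was lost without ap > NelfAi replicate 1 (log2 0.83, adjusted p = 0.176) and by edgeR (0.0938). With the length trend removed, chico (log2 1.10, adjusted p = 0.0229 by limma) and InR (1.88, 0.0184) were called as well, beside 12.2% of all genes called higher on that scale.

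Whether Yki and Nelf-A depletion together differed from the sum of both on the log scale was tested as an interaction. Thor was the one member called, beside 1.26% of all genes (25 higher and 74 lower by limma, 12 higher and 93 lower by edgeR). The log2 difference between ap > Yki+NelfAi and ap > NelfAi (4.71) exceeded that between ap > Yki and ap > GFP (2.16) by 2.55 (SE 0.473, 95% interval 1.49 to 3.62, adjusted p = 0.0412 by limma). The yki row itself was called as well, at 2.82 (SE 0.498, adjusted p = 0.0332 by limma). A higher yki level and a changed response to Yki thus cannot be told apart here. The call of Thor was close to the threshold. It was kept in 2 of the 10 fits that left out 1 library, those without ap > NelfAi replicate 1 (0.0172) and without replicate 2 (0.0215), and lost in the other 8, with adjusted p-values up to 0.157 and log2 values of 2.03 to 3.07 over the 10 fits. The adjusted p was 0.00828 with the length trend removed, 0.0472 by edgeR and 0.000119 by DESeq2, and the call was lost with the replicate number as a block (0.116). For InR (3.04), S6k (1.79), chico (1.5) and Akt1 (0.88) the interaction was not called, with adjusted p-values of 0.427, 0.32, 0.295 and 0.365 by limma. Without ap > NelfAi replicate 2, which leaves 1 library of that genotype, the 4 were at 5.41, 2.84, 2.06 and 1.45. Without replicate 1 they were at 0.66, 0.74, 0.95 and 0.31.

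The next counts are of groups that do not overlap, in deposited values. Against ap > GFP, 7 members had every tumorous library higher (InR, chico, Akt1, gig, Rheb, S6k and Thor) and 1 had every one lower (Tsc1). Of all genes tested, 33.3% and 31.0% did so. Against ap > Yki, Akt1, Rheb, S6k and Thor had every tumorous library higher and no member every one lower, where 21.8% of all genes were higher and 21.6% lower. In ap > Yki against ap > GFP, foxo and Thor had every library higher and Akt1 every library lower, where 21.8% and 19.3% of all genes did. With the length trend removed, Akt1 overlapped in all of these comparisons. On that scale the tumorous libraries also lay above ap > GFP for foxo (12.0 to 17.9 against 11.5 to 11.9) and above ap > Yki for InR. Those of ap > Yki lay below ap > GFP for Tsc1 (11.2 to 13.4 against 13.8 to 14.6). Shares of all genes were not counted on that scale. The highest library was ap > Yki+NelfAi replicate 1 for 6 members, and for 5 with the length trend removed. How many of all genes were highest in that library was not counted.

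Levels between genes were compared per kilobase of the longest transcript. In ap > Yki+NelfAi, Thor averaged 471 deposited units per kb, ahead of Rheb (26.4), S6k (19.6) and Akt1 (10.1), and Tsc1 was lowest at 3.13. In ap > GFP the order ran from Thor (24.7) and Rheb (21.5) through S6k (9.72) and Akt1 (9.63) to InR (2.16), the lowest. There Thor, with libraries at 33.4 and 15.9 per kb, overlapped with Rheb (20.9 to 22.1), and S6k (9.32 to 10.1) with Akt1 (9.55 to 9.72), so these neighbours did not differ beyond their spread. In the tumorous libraries Thor (407 to 547 per kb) overlapped with no other member. Rheb (25.7 to 26.9) lay inside the range of S6k (15.5 to 27.1). Tsc1 (2.39 to 3.59) overlapped with Tor (2.89 to 4.10), foxo (2.94 to 5.20) and InR (2.94 to 6.22). The order within these sets did not go beyond the spread.

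Across the 10 libraries, the genes whose log2 values most resembled those of the 3 members with the widest range of genotype means were listed, as a description over points that share genotype and length trend. For Thor they were CG13188 (Pearson's r = 0.985), CG18522 (0.985) and CG14132 (0.984). For InR they were Pka-R2 (0.989), luna (0.984) and hts (0.982), and for S6k sty (0.988), the noncoding CR43334 (0.988) and dm (0.988), which encodes the growth regulator Myc. Between members, InR and S6k had r = 0.939 and InR and chico 0.90, whereas Thor had 0.619 with S6k and 0.388 with InR over the same 10 libraries.

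The wider pathway was read from 7 lists holding 61 further genes, of which 52 are in the table and all 52 were tested. These lists were chosen with earlier results of these data known, so their shares beside all genes are a description. The other 9, among them the insulin-like peptide genes Ilp1 to Ilp7, were not analysed here. In ap > Yki+NelfAi against ap > GFP, 9 of the 52 were called higher and 3 lower, beside 10% and 12.1% of all genes, with a median log2 fold change of 0.34 against 0.03 for all genes. Between ap > Yki and ap > GFP, 3 genes were higher by the same rule (Ilp8, L and eIF-4a) and 0 lower, beside 2.41% and 1.64% of all genes. In ap > NelfAi against ap > GFP none was called. The calls against ap > GFP lean on the 2 control libraries: of the 12 in the tumorous discs, 4 were kept without ap > GFP replicate 1 and 1, that of L, without replicate 3, although all 12 were kept with the length trend removed and 11 by edgeR.

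Among ligands and secreted binding proteins, 3 of 4 genes tested were called in tumorous discs against ap > GFP, beside 22.1% of all genes. Like the other lists, this one was chosen with earlier results of these data known. ImpL2, a secreted protein that binds insulin-like peptides and antagonises their signal, had 285, 577 and 356 in ap > Yki+NelfAi, 85.1, 97.5 and 92.8 in ap > Yki, 28.6 and 79.1 in ap > NelfAi, and 92.3 and 88.6 in ap > GFP. The tumorous libraries stood above all others, and ap > Yki overlapped with ap > GFP. Its log2 fold change was 2.10 against ap > GFP (SE 0.404, adjusted p = 0.00589 by limma, 0.0528 without ap > GFP replicate 3) and 2.08 against ap > Yki (SE 0.361, adjusted p = 0.0045, called whichever library was left out). Its interaction of 2.99 (SE 0.571, adjusted p = 0.0429 by limma) was kept in 3 of the 10 such fits, with adjusted p up to 0.193, and was 0.0533 by edgeR. Ilp8, a relaxin-like peptide that delays pupariation when discs grow abnormally, had 10.8, 20.4 and 54.8 in ap > Yki+NelfAi, 73.3, 100 and 72.3 in ap > Yki, 13.8 and 8.64 in ap > NelfAi, and 6.20 and 2.48 in ap > GFP. It was thus highest in ap > Yki: the log2 fold change against ap > GFP was 2.40 in the tumorous discs (adjusted p = 0.0186 by limma), with 4.19 in ap > Yki (0.00659), and that of the tumorous discs against ap > Yki was -1.79 (0.0446, kept in 3 of the 10 fits lacking a library). Both calls against ap > GFP were lost without ap > GFP replicate 3 (adjusted p = 0.176 and 0.0942). Sdr, a secreted decoy of the insulin receptor, was lower in the tumorous discs, with 2.75, 6.24 and 4.99 in ap > Yki+NelfAi, 14.2, 15.1 and 15.8 in ap > Yki, with 10.7 and 12.7 in ap > GFP. Its log2 fold change was -1.65 against ap > Yki (adjusted p = 0.0026 by limma, 10 of 10 fits) and -1.30 against ap > GFP (0.0109, lost without either ap > GFP library, adjusted p up to 0.101). The fourth, conv, a homologue of the vertebrate acid-labile subunit, was called against ap > Yki (log2 1.00, adjusted p = 0.0416, 3 of 10 fits).

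**Figure D4:**
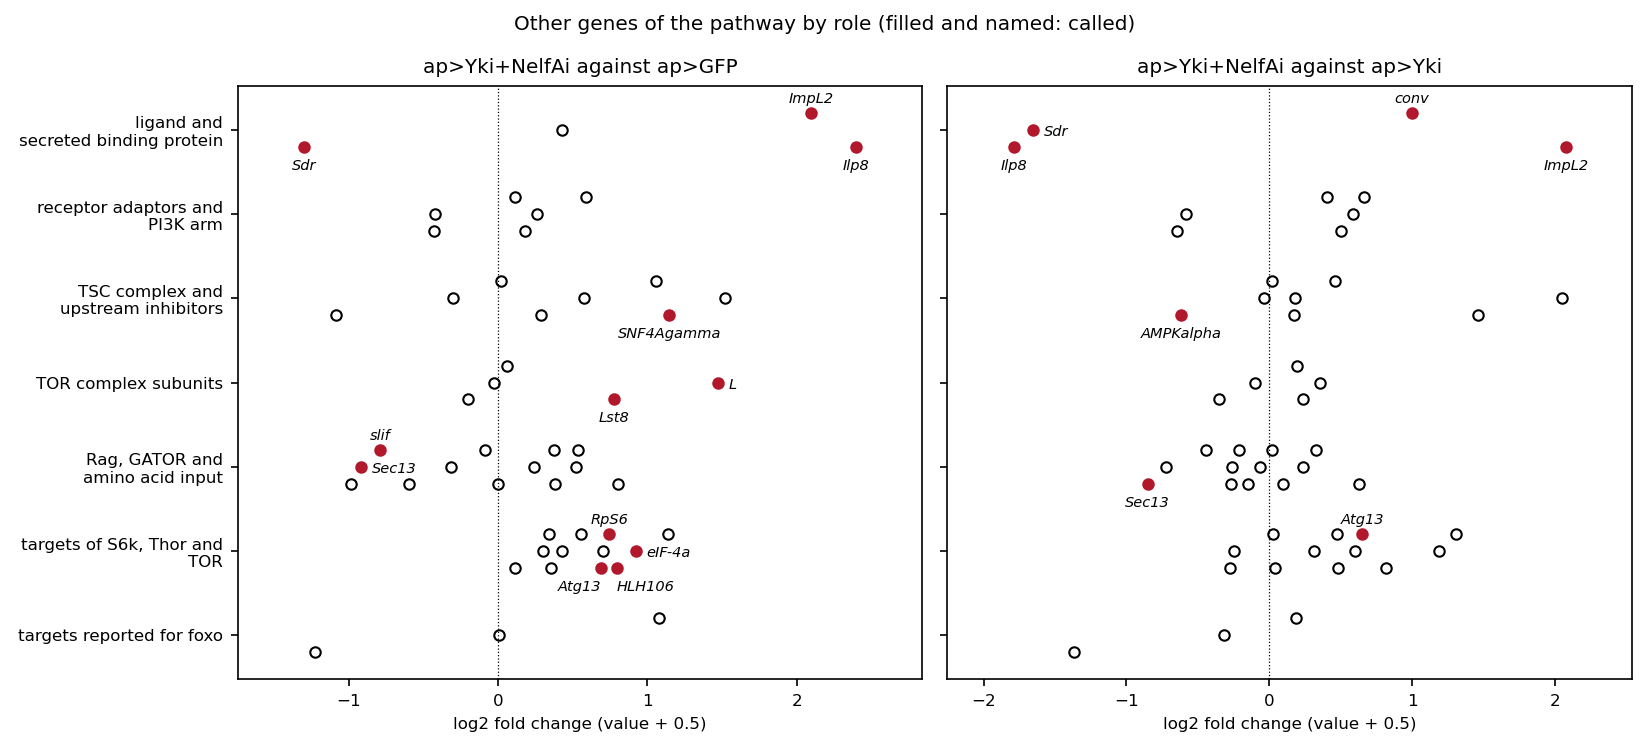
Log2 fold change (horizontal axis, log2 of value + 0.5) of the further pathway genes reported, by list, in ap > Yki+NelfAi against ap > GFP (left) and against ap > Yki (right); each point is a gene, and filled points are called and named. ImpL2 lies on the right of both panels (2.10 and 2.08), Sdr on the left of both (-1.30 and -1.65), and Ilp8 changes side (2.40 and -1.79).

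In the arm from receptor to PI3-kinase, 0 of 7 genes were called against ap > GFP, beside 22.1% of all genes. Of the TSC complex and its upstream inhibitors, SNF4Agamma, the gamma subunit of the energy sensor AMPK, was the 1 of 8 genes called against ap > GFP. The same share of all genes applies there. It had 91.5, 69.7 and 62.0 in ap > Yki+NelfAi, against 40.8 and 26.5 in ap > GFP (log2 1.15, adjusted p = 0.0172 by limma; lost without ap > Yki+NelfAi replicate 1 or ap > GFP replicate 3, up to 0.179), and the ap > Yki libraries at 58.0 to 75.7 overlapped with the tumorous ones. The catalytic subunit gene AMPKalpha went the other way against ap > Yki, with 54.3, 43.6 and 44.1 in ap > Yki+NelfAi, against 74.5, 79.9 and 63.7 in ap > Yki (log2 -0.62, adjusted p = 0.0273 by limma, 4 of 10 fits). Sesn and scyl, inhibitors of TORC1, were called only in the comparison with ap > NelfAi. Sesn, a sestrin, had 28.0, 16.0 and 8.08 in ap > Yki+NelfAi, against 1.51 and 1.96 in ap > NelfAi (18 and 32 reads; log2 2.84, adjusted p = 0.00805 by limma, 10 of 10 fits). scyl, the fly REDD1, had 248, 383 and 385 in ap > Yki+NelfAi, 52.9, 78.2 and 123 in ap > Yki, 14.8 and 162 in ap > NelfAi, and 152 and 87.7 in ap > GFP. Its tumorous libraries were above all others, yet it was called against ap > NelfAi only (log2 2.74, adjusted p = 0.045, 1 of 10 fits, up to 0.144).

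Among TOR complex subunits, 2 of 5 were called higher against ap > GFP, beside 10% of all genes. L (Lobe), the fly PRAS40 and an inhibitory partner of TORC1, had 139, 114.7 and 99.0 in ap > Yki+NelfAi, 98.9, 93.6 and 104 in ap > Yki, 49.0 and 43.4 in ap > NelfAi, and 40.2 and 43.1 in ap > GFP. Both genotypes with Yki were above both without it. The log2 fold change was 1.47 in ap > Yki+NelfAi (SE 0.184, adjusted p = 0.00064 by limma, 10 of 10 fits) and 1.24 in ap > Yki (0.00832; lost without either ap > GFP library, up to 0.0927). Lst8 had 32.8, 37.1 and 33.2 in ap > Yki+NelfAi and 20.1 and 19.5 in ap > GFP (log2 0.78, adjusted p = 0.0122 by limma; lost without ap > Yki+NelfAi replicate 2 or either ap > GFP library, up to 0.102).

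Among Rag, GATOR and amino acid genes, 2 of 13 were called lower against ap > GFP, beside 12.1% of all genes. Sec13, which serves GATOR as well as COPII vesicles and the nuclear pore, had 60.1, 56.6 and 55.9 in ap > Yki+NelfAi, 141, 108 and 74.3 in ap > Yki, with 102 and 117 in ap > GFP (log2 -0.92 against ap > GFP, adjusted p = 0.040 by limma, 4 of 10 fits, up to 0.228). Against ap > Yki it was called lower as well (log2 -0.85, adjusted p = 0.0397 by limma, 3 of 10 fits, up to 0.145). The amino acid transporter gene slif had 27, 19 and 18 reads in ap > Yki+NelfAi and 42 and 38 in ap > GFP (log2 -0.79, adjusted p = 0.0444 by limma, 2 of 10 fits, up to 0.279).

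All 12 genes in the list of targets of S6k, Thor and TOR had log2 fold changes above 0 in the tumorous discs against ap > GFP, as did 4088 of the 7858 genes tested. They lay between 0.12 and 1.13 with a median of 0.62, against 0.03 for all genes. Of the 12, 4 were called higher, beside 10% of all genes. This list was chosen with earlier results of these data known, so these shares are a description and no test of it. In ap > Yki against ap > GFP 7 of the 12 were above 0, with a median of 0.06, where 3843 of all genes were. eIF-4a, the helicase of the cap-binding complex that Thor disrupts, had 3446, 4195 and 3269 in ap > Yki+NelfAi, 5265, 4286 and 3698 in ap > Yki, with 1963 and 1844 in ap > GFP. Against ap > GFP it was at log2 0.93 in the tumorous discs (adjusted p = 0.0145 by limma, 7 of 10 fits that left out 1 library, up to 0.115), with 1.20 in ap > Yki (0.0178, 6 of 10 fits, up to 0.18). RpS6, the substrate of S6k, had 7184, 8433 and 6732 in ap > Yki+NelfAi and 4505 and 4357 in ap > GFP (log2 0.74, adjusted p = 0.043, 4 of 10 fits, up to 0.210). HLH106, the fly SREBP, was at log2 0.80 (0.0235, 5 of 10 fits, up to 0.174) and Atg13, a scaffold of the autophagy kinase Atg1, at 0.69 (0.0334, 5 of 10 fits, up to 0.252). Atg13 was the one gene of this list called against ap > Yki (log2 0.65, adjusted p = 0.0316 by limma, 3 of 10 fits, up to 0.125). Atg1 itself had 21.9, 19.1 and 20.2 in ap > Yki+NelfAi, against 8.47 and 14.0 in ap > NelfAi, where it was called (log2 0.87, adjusted p = 0.0284 by limma, 6 of 10 fits, up to 0.111). The list of reported Foxo targets leaves out the members, and so Thor, which Foxo is known to activate and which was called. Of the 3 genes tested on that list none was called against ap > GFP, beside 22.1% of all genes. The JAK/STAT ligand gene upd2 was called against ap > NelfAi (log2 1.51, adjusted p = 0.021 by limma). That call was lost without ap > Yki+NelfAi replicate 2 or ap > NelfAi replicate 1.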

How the data were processed

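RNA-seq libraries of wing discs were assigned to genotype and replicate number by their labels. The authors aligned reads with HISAT and deposited one table of signal values, each a gene's reads over a library factor; the submitters' processing notes also name bcl2fastq, StringTie and edgeR and the build dm6. Divided by the worth of 1 read, values were checked for being whole (100% of values, tolerance 0.001 read). The 5 entries without a gene held 28.4% to 36.5% of reads and were left out. The authors also deposited comparison tables (fold changes, p-values), which were not used.

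The test planned on counts was replaced, because the values are scaled, by limma (3.58.1, variance trend) on log2(value + 0.5) for genes at 1 or more in at least 2 libraries, with Benjamini-Hochberg adjustment over 7858 genes. It was tested on simulated data. Alternatives were edgeR (4.0.16, TMM and RLE) and DESeq2 (1.42.0) on recovered reads, pseudocounts of 0.1 and 1, no filter, no minimum fold, fits limited to the compared genotypes, a block for replicate number, the trend with transcript length removed by lowess (span 0.3), and each library left out. Leaving out both ap > NelfAi libraries was added after seeing the data. The 7 lists were ligands and secreted binding proteins, receptor adaptors and PI3-kinase, TSC complex and upstream inhibitors, TOR complex subunits, Rag, GATOR and amino acid input, targets of S6k, Thor and TOR, and reported Foxo targets. Genes named are the 10 members, every list gene called in any of 6 comparisons (1 gene is counted in its list but not reported here), and the 3 genes most correlated with each of the 3 most variable members. The members and lists were chosen with earlier results of these data known. Gene names, positions and lengths come from the annotation of the same coordinates.

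Chi-square per degree of freedom between replicates of a genotype was 19.0 to 134, so no library was a copy of another of its genotype. Libraries of different genotypes were not compared in this way. The methods state 3 replicates per genotype and the deposited design 2; libraries not listed were not analysed here.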

Additional observations from a re-analysis of the deposited data

Results flagged for a closer look

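In Thor, the interaction term of Yki and Nelf-A depletion was 2.55 on the log2 scale (standard error, SE, 0.473, adjusted p = 0.0412 by limma). Thor was at 307, 413 and 347 in ap > Yki+NelfAi, 85.2, 74.8 and 79.1 in ap > Yki, 17.8 and 9.49 in ap > NelfAi, and 25.3 and 12.0 in ap > GFP. In ImpL2, the interaction term was 2.99 (SE 0.571, adjusted p = 0.0429 by limma), with 285, 577 and 356 in ap > Yki+NelfAi, 85.1, 97.5 and 92.8 in ap > Yki, 28.6 and 79.1 in ap > NelfAi, and 92.3 and 88.6 in ap > GFP. Both calls lie near the threshold and were lost in most fits that left out 1 library. The yki value itself was 8143 to 11376 in ap > Yki+NelfAi and 2637 to 4007 in ap > Yki (log2 1.56, adjusted p = 0.00905 by limma). The interaction term of yki itself was 2.82 (SE 0.498, adjusted p = 0.0332 by limma). A higher yki level and a changed response to Yki cannot be told apart here. The part of yki in either result was not tested.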

How the results depend on the processing

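The calls of Thor in ap > Yki+NelfAi against ap > GFP, ap > Yki and ap > NelfAi kept their direction and their side of the threshold under every alternative run. In ap > Yki+NelfAi against ap > GFP, members called were 1, and 2 with the length trend removed or both ap > NelfAi libraries left out and 3 with only the compared genotypes fitted; all genes called were 1736, 2650 in that fit and 1091 with the replicate block. In ap > Yki against ap > GFP, 318 genes were called, 612 by DESeq2, 767 with the length trend removed, 488 in the fit of only the genotypes compared, 117 with the block, 501 with block and length correction, and 652 without both ap > NelfAi libraries. In ap > NelfAi against ap > GFP, 6 genes were called, 3 at a pseudocount of 0.1, 1 by edgeR with TMM or RLE, 20 by DESeq2, 0 in the fit of only the genotypes compared, and 1 with the block, with or without length correction. Against ap > Yki, members called in the tumorous discs were 1, 3 with the length trend removed, and 2 with block and length correction or without both ap > NelfAi libraries. Against ap > NelfAi, members called were 2, 1 by edgeR with TMM or RLE, in the fit of only the genotypes compared and with the block, and 4 with the length trend removed; genes called were 1373, and 2068, 552 and 883 with the length trend removed, in the fit of only the genotypes compared and with the block. For the interaction, 99 genes were called, 433 by DESeq2, 419 with the length trend removed, 0 with the block and 188 with block and length correction; members called were 1, and 0 with the block (Thor, adjusted p = 0.116). A fit of only the genotypes compared does not exist for the interaction, which uses all 4.

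Differences of members that were not called changed sign: Akt1 in ap > Yki+NelfAi against ap > GFP was -0.047 with the block, Tor in that comparison 0.0041 by edgeR with TMM, 0.0059 with the block and 0.085 with block and length correction, S6k in ap > Yki against ap > GFP -0.036 with the block, Tor there 0.072 with block and length correction, and Rheb there -0.036 with the length trend removed and -0.043 with block and length correction. In ap > NelfAi against ap > GFP, with the length trend removed and with block and length correction, Tor was 0.27 and 0.46, gig 0.21 and 0.16, Tsc1 0.12 and 0.18 and Rheb -0.095 and -0.11, and Tsc1 was 0.025 by edgeR with TMM, 0.0073 with RLE and 0.0089 by DESeq2. Under the same 2 corrections Tor was -0.28 and -0.37 in ap > Yki+NelfAi against ap > NelfAi, and -0.26 and -0.44 in the interaction. The replicate numbers were not taken as pairs: same-numbered libraries of different genotypes deviated together with r from -0.43 to 0.59 over 12 pairs.

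Leaving out 1 library at a time, genes called ranged from 694 to 2378 in ap > Yki+NelfAi against ap > GFP (members 1 to 2), 39 to 655 in ap > Yki against ap > GFP (members 0 to 1), 1 to 841 in ap > NelfAi against ap > GFP (members 0 to 4), 719 to 1971 in ap > Yki+NelfAi against ap > Yki (members 1 to 2), 880 to 2640 against ap > NelfAi (members 1 to 7) and 4 to 1025 for the interaction (members 0 to 5). Log2 fold changes that changed sign ranged, in ap > Yki+NelfAi against ap > GFP, from -0.12 to 0.15 (Tor); in ap > Yki against ap > GFP, from -0.17 to 0.35 (S6k), -0.47 to 0.045 (Tor), -0.058 to 0.13 (Rheb) and -0.13 to 0.27 (gig); in ap > Yki+NelfAi against ap > Yki, from -0.059 to 0.46 (Tor) and -0.18 to 0.12 (Tsc1); in ap > NelfAi against ap > GFP, from -4.05 to 0.70 (InR), -1.23 to 0.14 (foxo), -0.93 to 0.11 (Thor), -1.97 to 0.12 (S6k), -0.88 to 0.46 (Tor), -0.65 to 0.39 (gig), -0.34 to 0.25 (Tsc1) and -0.18 to 0.22 (Rheb); in ap > Yki+NelfAi against ap > NelfAi, from -0.47 to 0.86 (Tor), -0.53 to 0.061 (Tsc1) and -0.021 to 1.01 (gig); and in the interaction, from -0.45 to 0.91 (foxo), -0.33 to 1.00 (Tor), -0.30 to 0.29 (Tsc1) and -0.11 to 0.93 (gig). Of the other results on single genes, 908 values under alternatives and 750 under left-out libraries kept direction and call, 50 and 144 lost the call, and 11 and 19 gained it. TMM moved the median of all genes in the interaction to -0.10.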
